A study of Homo sapiens with 6 samples.

Results

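The genes of 3 protein families were followed in U251 cells treated with sevoflurane (Sev): the collagens, the laminin chains and the integrin subunits. Protein-coding rows of the count table were chosen by gene symbol alone (COL, LAM, ITGA and ITGB genes with their numbers), which gave 82 genes among 61496 features: 44 collagen genes, 12 laminin chain genes and 26 integrin subunit genes. Of the 82 genes, 58 were expressed in control cells (32 collagens, 9 laminins and 17 integrins), and 24 were near silent there, that is under a mean of 1 CPM (read counts scaled to TMM-normalized library size) over the control libraries. U251 is an established human glioma cell line, and Sev is an inhaled volatile anesthetic. The study compared 3 libraries of untreated U251 cells with 3 libraries of U251 cells exposed to Sev gas for 2 h, to find the transcripts that Sev affects. Sev was applied at 1.7%, at 3.4% or at 5.1% per the treatment protocol, and the labels do not give the concentration for each library. The study describes the sequenced Sev cells as exposed to the highest of these. The labels do not say whether the libraries of a group came from separate cultures, so that p-values measure only the spread between these libraries. Every library came from this single line grown in serum, and the labels name no carrier gas control.

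Collagens are triple-helical proteins built from alpha chains of different genes: fibrillar collagens form the fibrils of connective tissue, type IV collagens form the sheet of the basement membrane, and smaller classes decorate fibrils or span the membrane. Laminins are trimers of an alpha, a beta and a gamma chain and are the other main scaffold of basement membranes. Integrins are alpha-beta dimers at the cell surface that bind these proteins and link them to actin or, for the alpha-6 beta-4 dimer, to intermediate filaments. Glioma cells make and move along such matrix, mainly at blood vessels and the brain surface.

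The libraries held 38624292 to 46318311 counts, of which the 82 genes took 0.925% to 1.02% in control and 0.736% to 0.867% in Sev. The first principal component held 69% of the variance and separated the groups, and the second (10%) placed Sev replicate 2 and Sev replicate 3 at its opposite ends. Of the 12 astrocyte and glioma markers examined, VIM, NES, GFAP and SOX2 were among the 10 present, whereas AQP4 and CHI3L1 stayed under 1 CPM in every library. Markers of other cell types were low or mixed: epithelial markers summed to 9.36 to 21.7 CPM in control and 5.1 to 13.1 CPM in Sev, with 6 of 7 under 1 CPM, and the neuronal list summed to 32.5 to 37.5 and 30.1 to 32.7 CPM. The fibroblast list (518 to 634 CPM in control, 352 to 820.1 CPM in Sev) was carried by PDGFRA and THY1, while DCN, LUM and FAP stayed under 1 CPM.

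Among the 58 genes expressed in control, 18 were lower after Sev and 8 were higher at an adjusted p under 0.05 in edgeR's quasi-likelihood test, and 32 were not called. That is 31% lower and 13.8% higher, against 21.5% lower and 22.1% higher of all 27514 tested features, and against 23.2% and 23% of the 13190 protein-coding genes at 1 CPM or more in control. The median log2 fold change of the 58 genes was -0.14, and that of all tested features was -0.01. With libraries scaled by their total counts alone, 25 genes were lower and 6 higher, a scaling that moved the median of all features to -0.147 and that of the 58 genes to -0.279. Collagens made up most of the decrease, with 13 of 32 lower and 3 higher. Laminins had 2 lower and 2 higher of 9, and integrins 3 lower and 3 higher of 17. A lower level in bulk RNA cannot be told apart from fewer cells that make the transcript.

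**Figure D1:**
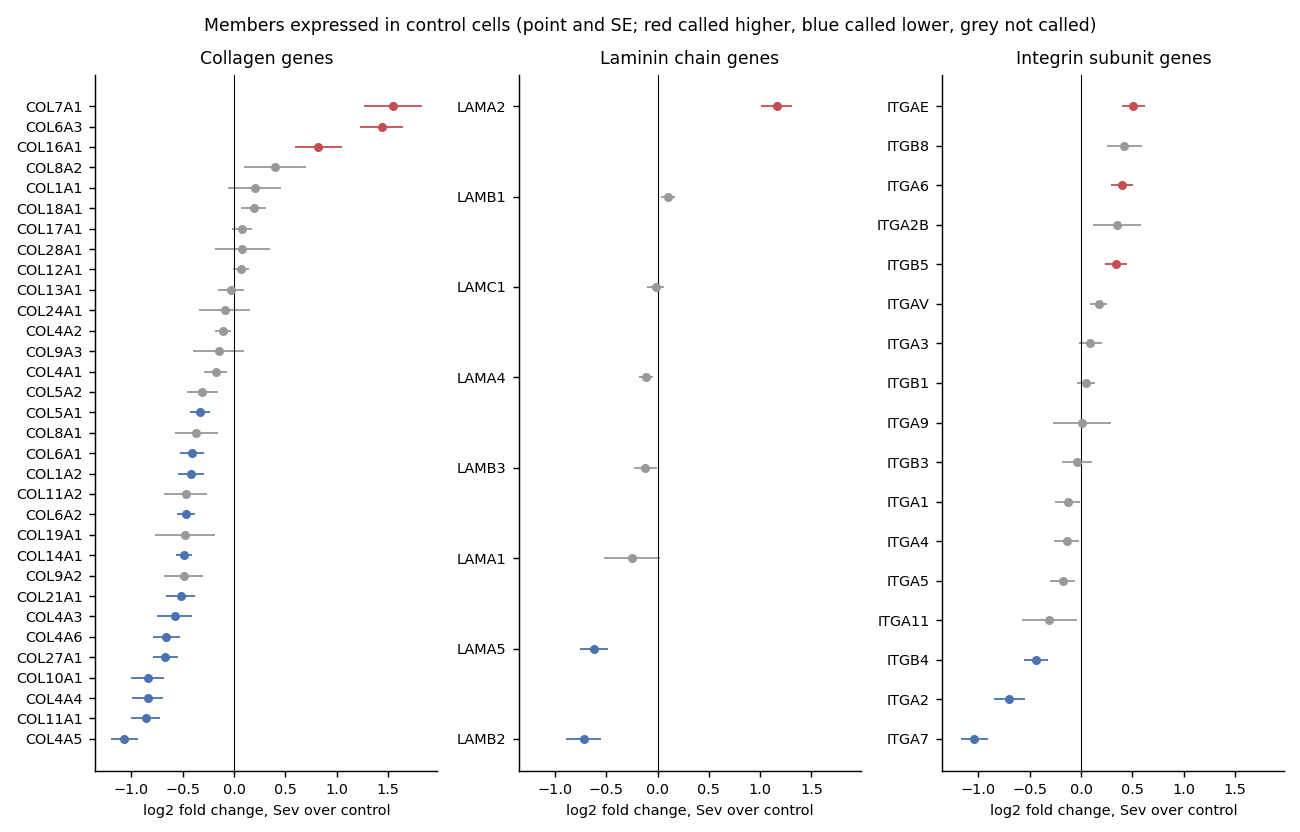
Log2 fold change of Sev over control (x axis) with its standard error for the genes expressed in control that are reported here, in a panel for each family. Blue points were called lower, red points higher and grey points not called, and blue points fill most of the lower part of the collagen panel (13 of 32 genes) but only 3 of 17 places in the integrin panel.

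Few of these changes were large. Past a log2 fold change of 1 in either direction with an unadjusted p under 0.05, 4 genes were higher, among them COL6A3, COL7A1 and LAMA2, and 2 were lower (COL4A5 and ITGA7), where 11.4% of all tested features were past it upward and 12% downward (4.34% and 7.65% of the protein-coding genes at 1 CPM or more in control). Both lower genes lay close to that line: without Sev replicate 3 no gene passed it downward, and without control replicate 1 only 1 did. In 30 of the 58 genes the control and Sev libraries did not overlap, beside 56.5% of all tested features and 58.2% of those protein-coding genes. The balance differed with level. Of the 19 genes over 100 CPM on average across the 6 libraries, 8 were lower and 1 higher with a median of -0.11, while of the 2074 protein-coding genes over that level 10.8% were lower and 41.2% higher with a median of 0.20. From 10 to 100 CPM, 7 of 22 were lower and 4 higher, beside 23.3% and 22.5%. From 1 to 10 CPM, 3 of 17 were lower and 3 higher, beside 29.1% and 13.8% of the 3433 protein-coding genes at that level. Within the Sev group, replicate 2 held the highest value for 16 of the 18 lower genes and for 43 of all 58, compared with 1277 of the 3060 protein-coding genes called lower and 5436 of all 13190, and what set that library apart was not tested. Over the 58 genes, the fold change had a Spearman correlation of -0.14 with the genomic span of the gene, 0.00 with its exon length and -0.05 with its mean CPM, beside -0.07, -0.08 and 0.27 over the 13190 protein-coding genes. These are descriptions across genes, which are not independent replicates.

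Fibrillar collagens were led by the alpha-2 chain of type I collagen and the alpha-2 chain of type V collagen. Per length, COL1A2 reached 94.2 FPKM in control and COL5A2 62.2 FPKM, whereas COL1A1, which encodes the other chain of type I collagen, stood at 0.954 FPKM. Their summed level (FPKM divided by the TMM factor) was 189, 168 and 174 in the control libraries and 128, 162 and 117 in the Sev libraries, 23.4% lower on average, and the groups did not overlap. Of the 8 fibrillar genes expressed in control 4 were lower (COL1A2, COL5A1, COL11A1 and COL27A1) and 0 were higher. Of all tested features, 21.5% were lower and 22.1% higher.

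COL1A2 (ENSG00000164692, chromosome 7, 94394561 to 94431232) stood at 1329, 1128 and 1220.5 CPM in control and at 838, 1101 and 814 CPM in Sev. The highest Sev library came just under the lowest control library. The transcript fell by 0.42 on the log2 scale (SE 0.13, adjusted p = 0.0358), a call lost in 4 of the 6 fits that leave out a library, with adjusted p up to 0.117. COL1A1 was at 10, 12.1 and 11.2 CPM in control and at 10, 9.63 and 18.7 CPM in Sev, and these ranges overlapped. COL5A1, a chain that sets fibril diameter, had 244, 236 and 231 CPM in control and 169.8, 213 and 185 CPM in Sev. It fell by 0.33 (SE 0.10, adjusted p = 0.0256), and the call was lost in 5 of 6 such fits. COL5A2, its partner chain, had 563, 513 and 519 CPM in control against 425, 520.3 and 339.9 CPM in Sev. Sev replicate 2 alone reached the control range, and the log2 fold change of -0.31 (95% interval -0.65 to 0.03, adjusted p = 0.12) was not called. It was called lower without Sev replicate 2, with total-count scaling (-0.46, adjusted p = 0.0203) and in the 2 filtered limma fits to FPKM.

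COL11A1, a minor fibrillar chain best known from cartilage and tumor stroma, was at 96.6, 77.6 and 79.3 CPM in control and at 47.1, 53.9 and 38.8 CPM in Sev. Every Sev library lay below every control library, and the transcript fell by 0.86 (SE 0.14, adjusted p = 0.00238). COL27A1, a fibrillar collagen of cartilage, was at 29.3, 26.4 and 29.7 CPM and then at 18, 19.9 and 15.8 CPM. It fell by 0.67 (SE 0.12, adjusted p = 0.00304). Both calls held in all 6 fits that leave out a library. COL11A2 (log2 fold change -0.47) and COL24A1 (-0.09) were under 3 CPM in every library and were not called.

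**Figure D2:**
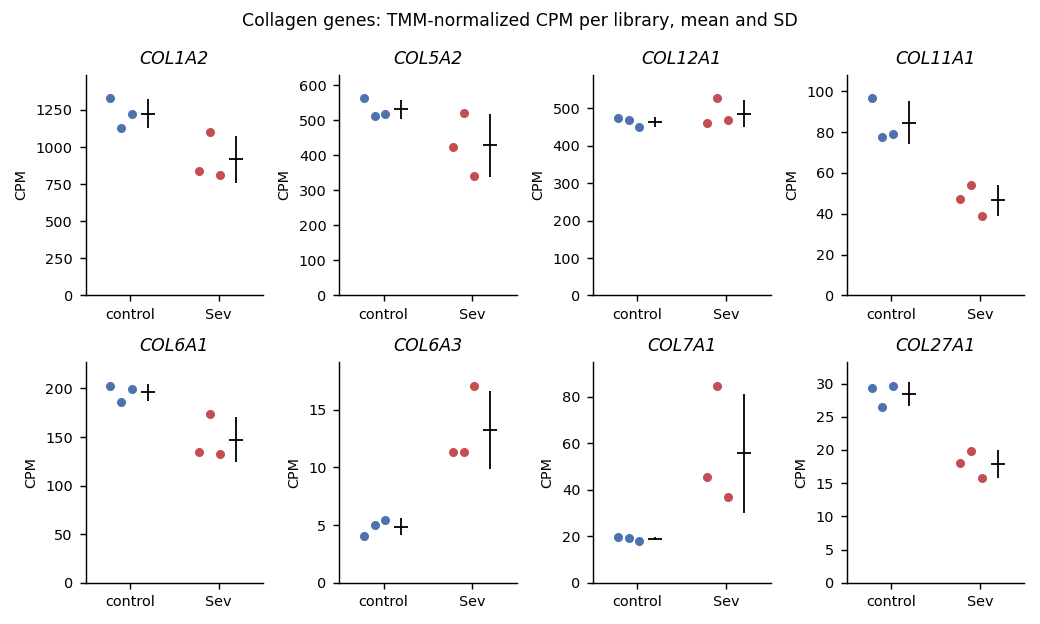
TMM-normalized CPM of 8 collagen genes in each library (y axis, starting at 0), with the group mean and SD as a black mark and bar. COL11A1 and COL27A1 sit lower in all 3 Sev libraries, COL12A1 overlaps between the groups, and COL6A3 and COL7A1 sit higher, with COL7A1 ranging from 36.7 to 84.9 CPM in Sev.

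Of the collagen classes, the network-forming collagens showed the largest decrease in summed level, 28.8% lower, from 27.2, 28.1 and 27.3 in control to 18.5, 21.9 and 18.4 in Sev on the TMM-scaled FPKM scale. Of the 9 genes expressed in control 5 were lower and 0 higher, beside 21.5% and 22.1% of all tested features. Their median log2 fold change was -0.58. Those called lower included 4 of the 6 type IV collagen genes. These genes lie in head-to-head pairs, so that each pair starts from a shared stretch of DNA and runs apart: COL4A1 and COL4A2 on chromosome 13, COL4A4 and COL4A3 on chromosome 2, and COL4A6 and COL4A5 on chromosome X. The RefSeq starts (GRCh38.p14) are 126, 418 and 379 bases apart in that order.

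Stretches free of annotated exons between the starts of the 2 pairs that fell, in the second pair the 250 bases next to COL4A5, are shown because both genes of each pair moved down together. They are given on the plus strand of GRCh38.p14 from RefSeq, at chr2:227164454-227164564 (111 bases) and at chrX:108439588-108439837 (250 bases). Capitals mark GC boxes (GGGCGG) and CCAAT boxes (CCAAT), read on both strands, so that the reverse complement ATTGG also counts.
COL4A4-COL4A3: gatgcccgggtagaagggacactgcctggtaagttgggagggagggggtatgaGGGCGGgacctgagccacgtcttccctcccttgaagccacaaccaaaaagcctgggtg
COL4A6-COL4A5: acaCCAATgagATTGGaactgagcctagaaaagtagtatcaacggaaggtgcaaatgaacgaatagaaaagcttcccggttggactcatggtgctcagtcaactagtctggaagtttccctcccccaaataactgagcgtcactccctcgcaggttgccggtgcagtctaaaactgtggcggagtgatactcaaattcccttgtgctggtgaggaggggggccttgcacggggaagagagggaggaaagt
The first stretch held 1 GC box and the second held 2 CCAAT boxes in opposite orientation. Across the 250 bases upstream of all 35116 RefSeq starts, 42.6% held a GC box and 32% a CCAAT box, so both are common letters and their presence is only a description.

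COL4A5 (ENSG00000188153, chromosome X, 108439844 to 108697545), whose chain is altered in Alport syndrome, was at 147, 137 and 141 CPM in control and at 60.8, 81.5 and 59.2 CPM in Sev. It was the collagen that fell most among those expressed in control, by 1.07 (SE 0.13, adjusted p = 0.000641), and the groups lay far apart. COL4A6, its divergent neighbor, was at 16.7, 13.4 and 14.3 CPM and then at 8.87, 10.1 and 9.11 CPM. It fell by 0.66 (SE 0.13, adjusted p = 0.00544). COL4A4 (ENSG00000081052) went from 7.73, 7.24 and 9.08 CPM to 4.22, 4.66 and 4.52 CPM, and fell by 0.84 (SE 0.15, adjusted p = 0.00314). COL4A3, its neighbor across the 111 bases, was at 4.35, 4.54 and 5.6 CPM and then at 3.48, 3.06 and 3.13 CPM. This gene fell by 0.58 (adjusted p = 0.0243) without overlap, although the call was lost in 4 of 6 fits that leave out a library. RHBDD1, 3496 bases beyond the other end of COL4A4, was lower as well (-0.74, adjusted p = 0.00443).

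The third pair is the ubiquitous basement membrane network. COL4A1 was at 76.8, 91.1 and 79.1 CPM in control and 70.3, 82.4 and 65.9 CPM in Sev, and COL4A2 was at 185, 204 and 194 CPM and then 175, 193 and 173 CPM. Both sets of values overlapped. The log2 fold change was -0.18 (95% interval -0.44 to 0.08, adjusted p = 0.235) for COL4A1 and -0.11 (95% interval -0.29 to 0.07, adjusted p = 0.3) for COL4A2. The interval of COL4A2 lies wholly above that of COL4A5, -1.37 to -0.78, but the difference between the 2 genes was not tested. With total-count scaling both were called lower.

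**Figure D3:**
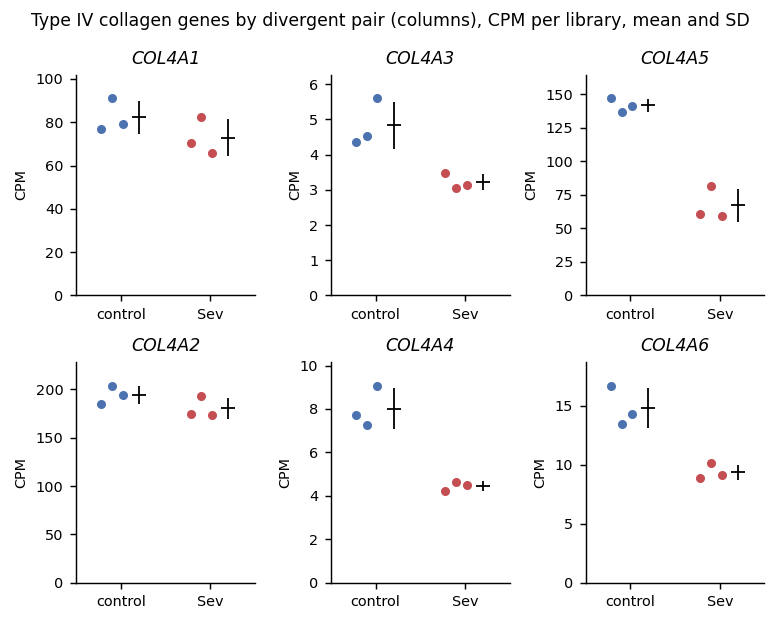
TMM-normalized CPM of the 6 type IV collagen genes in each library, 1 divergent pair in each column, with the group mean and SD in black and the y axis starting at 0. The left pair overlaps between groups, while in the middle and right pairs every Sev library lies below every control library.

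Other network collagens were scarcer. COL10A1, a hypertrophic cartilage collagen, was at 6.67, 6.21 and 5.69 CPM in control and 3.19, 3.3 and 3.89 CPM in Sev, and fell by 0.84 (SE 0.16, adjusted p = 0.00411) in every fit that leaves out a library. COL8A1 (-0.37) and COL8A2 (0.40), which encode the short-chain collagens of endothelial membranes, were not called.

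Type VI collagen forms beaded filaments from an alpha-1, an alpha-2 and a longer alpha-3 chain. COL6A1 was at 203, 186 and 199 CPM in control and at 135, 174 and 133 CPM in Sev, and fell by 0.41 (SE 0.12, adjusted p = 0.0224). COL6A2, its neighbor on chromosome 21, was at 129, 116 and 110.3 CPM and then at 80.7, 92 and 83 CPM, and fell by 0.47 (SE 0.09, adjusted p = 0.00483). The Sev libraries lay below the control libraries for both genes, though the COL6A1 call was lost in 4 of 6 fits that leave out a library. COL6A3, which encodes the long chain, moved the other way: 4.09, 5.05 and 5.48 CPM in control and 11.3, 11.3 and 17.1 CPM in Sev. It rose by 1.44 (SE 0.21, adjusted p = 0.00144), yet per length it stayed low at 0.517 FPKM in Sev beside 21.3 FPKM for COL6A1.

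Collagens that sit on fibrils were mixed, and their summed level overlapped between groups. COL12A1, the most abundant of them, had 474, 468 and 449 CPM in control and 459.8, 527 and 469 CPM in Sev. Its log2 fold change was 0.07 (95% interval -0.13 to 0.26), or -0.08 with total-count scaling, and it was not called. COL14A1, a related fibril-surface collagen, was at 42.4, 40.8 and 40.3 CPM and then 29.8, 30.2 and 27.6 CPM, and fell by 0.49 (SE 0.08, adjusted p = 0.00289). Its replicates lay close together in both groups. COL21A1 fell by 0.52 (adjusted p = 0.0197) and COL16A1 rose by 0.82 (adjusted p = 0.0239), from 2.95, 2.7 and 2.49 CPM to 4.11, 6.47 and 3.79 CPM. Neither call held in every fit that leaves out a library, with 4 of 6 lost for COL21A1 and 3 of 6 for COL16A1. COL9A2 (-0.49), COL9A3 (-0.15) and COL19A1 (-0.48) were not called.

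COL7A1 (ENSG00000114270, chromosome 3, 48564073 to 48595267) encodes the anchoring fibril that fastens basement membranes to the tissue beneath. It was at 19.6, 19.4 and 18.1 CPM in control and at 45.7, 84.9 and 36.7 CPM in Sev. Every Sev library was above control, with Sev replicate 2 standing well apart from the other two, and the gene rose by 1.55 (SE 0.28, adjusted p = 0.00375). UCN2, which lies 300 bases downstream on the same strand, had at most 0.0505 CPM in control and 0.0796, 10.1 and 0.101 CPM in Sev, so that Sev replicate 2 alone was high. PFKFB4, a little farther on, fell by 1.37 (adjusted p = 0.000372). Whether reads of one gene were counted for another was not tested. The membrane-spanning COL13A1 (-0.03) and COL17A1 (0.08), the endostatin precursor COL18A1 (0.19) and COL28A1 (0.08) were not called.

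The summed laminin alpha chains were 24.8% lower in TMM-scaled FPKM (41.7, 38.7 and 41.8 in control, 28.8, 35.2 and 27.8 in Sev) and the beta chains 18.4% lower, in both cases without overlap. The gamma chains stood at a ratio of 1, with 46.6, 44.3 and 45.5 in control and 44.2, 49.1 and 43.2 in Sev, though at 0.906 in the deposited FPKM. Differences between chain classes were not tested, and members of 1 class moved in opposite directions. Pooled over the 6 libraries, LAMC1, LAMB2 and LAMA5 were the 3 most abundant chains per length, while in Sev LAMB1 (23.1 FPKM) was above LAMA5 (17.7 FPKM). Pooled in the same way, these 3 made up 70.6% of the summed laminin level.

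LAMA5 (ENSG00000130702), an alpha chain of vascular and brain laminins, was at 519.9, 463 and 529 CPM in control and at 303, 399 and 284 CPM in Sev, and fell by 0.62 (SE 0.14, adjusted p = 0.00822). LAMB2 (ENSG00000172037), the beta chain of synaptic and vascular laminins, was at 445, 332 and 382 CPM and then at 221, 289 and 192 CPM. It fell by 0.72 (SE 0.17, adjusted p = 0.00994). In both genes Sev replicate 2 was the nearest to control but still below it, and both calls held in all 6 fits that leave out a library. ADRM1, which overlaps LAMA5 on the opposite strand, rose by 0.63 (adjusted p = 0.00357). LAMC1 (ENSG00000135862), the usual gamma chain, was at 483, 456 and 472 CPM in control and at 449, 499 and 442 CPM in Sev. The groups overlapped, and the log2 fold change of -0.02 (95% interval -0.21 to 0.16, adjusted p = 0.843) turned to 0.00 and 0.01 without Sev replicates 1 and 3. LAMB1 (0.10), LAMB3 (-0.12), LAMA4 (-0.11) and LAMA1 (-0.25) were not called, though LAMA4 was called lower with total-count scaling and in all 3 fits to FPKM.

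LAMA2 (ENSG00000196569, chromosome 6, 128883141 to 129516569), the merosin chain lost in a congenital muscular dystrophy, was at 8.89, 6.46 and 8.36 CPM in control and at 17.1, 19.2 and 16.6 CPM in Sev. It rose by 1.16 (SE 0.15, adjusted p = 0.000918), and a non-coding RNA downstream of it, ENSG00000226149, rose from 3.46 to 18.1 CPM. Every Sev library lay above every control library.

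LAMB4 (ENSG00000091128, chromosome 7, 108023548 to 108130356), which encodes a beta chain, was near silent in control at 0.638, 0.606 and 0.494 CPM and reached 28.7, 26.2 and 28 CPM in Sev. A control library held 24 to 27 counts and a Sev library 983 to 1109, a ratio of 48 with an exact 95% interval of 38.2 to 61.2 that covers counting error only. On the log2 scale it rose by 5.57 (SE 0.15, adjusted p = 6.35e-06). LAMB1, the neighboring beta chain 20293 bases downstream on the same strand, was at 222, 235 and 222 CPM in control and at 234, 254 and 239 CPM in Sev. Its log2 fold change of 0.10 had a 95% interval of -0.07 to 0.27. NRCAM, on the other side, rose by 0.41 (adjusted p = 0.00317).

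The sequences before the start of LAMB4 and before that of LAMB1 are shown because these neighbors of 1 family differed so widely. Both are RefSeq sequence of GRCh38.p14 on the minus strand, at chr7:108130362-108130611 (250 bases) and chr7:108003256-108003411 (156 bases, the part clear of annotated exons). Capitals mark the same motifs as above.
LAMB4: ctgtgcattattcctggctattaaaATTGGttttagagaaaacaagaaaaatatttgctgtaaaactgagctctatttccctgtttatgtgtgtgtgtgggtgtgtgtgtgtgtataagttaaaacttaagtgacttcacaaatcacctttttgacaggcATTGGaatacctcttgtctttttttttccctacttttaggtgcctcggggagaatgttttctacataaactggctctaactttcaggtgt
LAMB1: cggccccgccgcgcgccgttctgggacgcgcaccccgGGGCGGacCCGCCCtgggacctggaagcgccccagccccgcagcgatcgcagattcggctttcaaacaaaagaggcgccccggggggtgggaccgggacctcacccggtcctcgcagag
LAMB4 held 2 CCAAT boxes, both as ATTGG, and LAMB1 held 2 GC boxes in opposite orientation. Promoter windows were matched for 58 of the 82 genes (77 windows), of which 22.1% held a CCAAT box and 53.2% a GC box, beside 32% and 42.6% of all windows. Of the other motifs searched on both strands, TATAAA was in 13% of the windows of these genes and 10.7% of all, TGACTCA (the AP-1 element) in 2.6% and 4.2%, and TGATGNAA (a C/EBP-ATF element) in 2.6% and 3.14%.

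The summed level of the integrins differed less than that of the collagens or laminins, with a Sev to control ratio of 0.95. Their summed TMM-scaled FPKM was 397, 399.9 and 395 in control and 364, 427 and 341 in Sev, and these ranges overlapped. In the deposited FPKM, without the TMM factor, the sums were 426, 410.2 and 414 in control and 346, 391 and 337 in Sev, a ratio of 0.859 without overlap. ITGB4, ITGA3 and ITGB1 made up 69.5% of it.

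Among integrins that bind collagen, ITGA2 (ENSG00000164171) was at 82.4, 71.8 and 91.3 CPM in control and at 47.3, 61.5 and 42.4 CPM in Sev. No Sev library reached the control range, and it fell by 0.70 (SE 0.15, adjusted p = 0.00795). ITGA1 (-0.13) and ITGA11 (-0.31) were not called, and the summed level of the collagen-binding alpha subunits, most of it ITGA2, was 35.3% lower in TMM-scaled FPKM. ITGA10 was near silent in control (0.378, 0.909 and 0.618 CPM) and stood at 1.17, 1.3 and 1.41 CPM in Sev, a rise of 1.03 (adjusted p = 0.0366) that was lost in 5 of 6 fits that leave out a library.

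Among those that bind laminin, ITGA7 (ENSG00000135424, chromosome 12, 55684568 to 55716043), known from muscle and from glioma cells, was at 123, 94.1 and 116 CPM in control and at 52, 61.3 and 49.1 CPM in Sev. It fell by 1.04 (SE 0.13, adjusted p = 0.000732), the widest fall of any integrin. METTL7B, which overlaps it on the opposite strand, fell by 0.80 (adjusted p = 0.0319), while BLOC1S1, which overlaps it as well, had a log2 fold change of -0.01. ITGA6 was at 69, 70.9 and 63.4 CPM in control and 87.2, 103 and 78.7 CPM in Sev, and rose by 0.40 (SE 0.11, adjusted p = 0.0213). ITGB4 (ENSG00000132470), its partner in hemidesmosomes, was the most abundant of the 82 genes per length at 137 FPKM in control. It was at 1069.7, 1079 and 1108 CPM in control and at 747, 944 and 702 CPM in Sev, and fell by 0.44 (SE 0.12, adjusted p = 0.0183). The groups did not overlap for either subunit, and each of these 2 calls was lost in 3 of 6 fits that leave out a library. ITGA3, the alpha subunit with the highest level, was at 1062, 1049 and 1044 CPM in control and at 1025, 1295 and 1029 CPM in Sev. Its log2 fold change was 0.09 (95% interval -0.16 to 0.34, adjusted p = 0.551), and -0.06 with total-count scaling.

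ITGB1, the beta subunit shared by most matrix-binding dimers, was at 479.7, 512 and 434 CPM in control and at 505, 481 and 493 CPM in Sev. Its log2 fold change was 0.05 (95% interval -0.14 to 0.25, adjusted p = 0.641), and -0.09 with total-count scaling. Of the subunits of RGD-binding dimers, ITGB5 was at 109.7, 111 and 111 CPM in control and 131, 162 and 126 CPM in Sev. It rose by 0.34 (SE 0.11, adjusted p = 0.0331), a call lost in 4 of 6 fits that leave out a library and without an expression filter. The calls of ITGB5 and ITGA6 were also lost with total-count scaling and in all 3 fits to FPKM. ITGAV (0.17), ITGA5 (-0.18), ITGA2B (0.35) and ITGB3 (-0.04) were not called. ITGB8, which activates latent TGF-beta, was at 415, 434 and 439 CPM and then 569, 727 and 425 CPM, a log2 fold change of 0.42 (adjusted p = 0.0858) in which Sev replicate 3 alone lay within the control range. Without that library it was called higher.

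**Figure D4:**
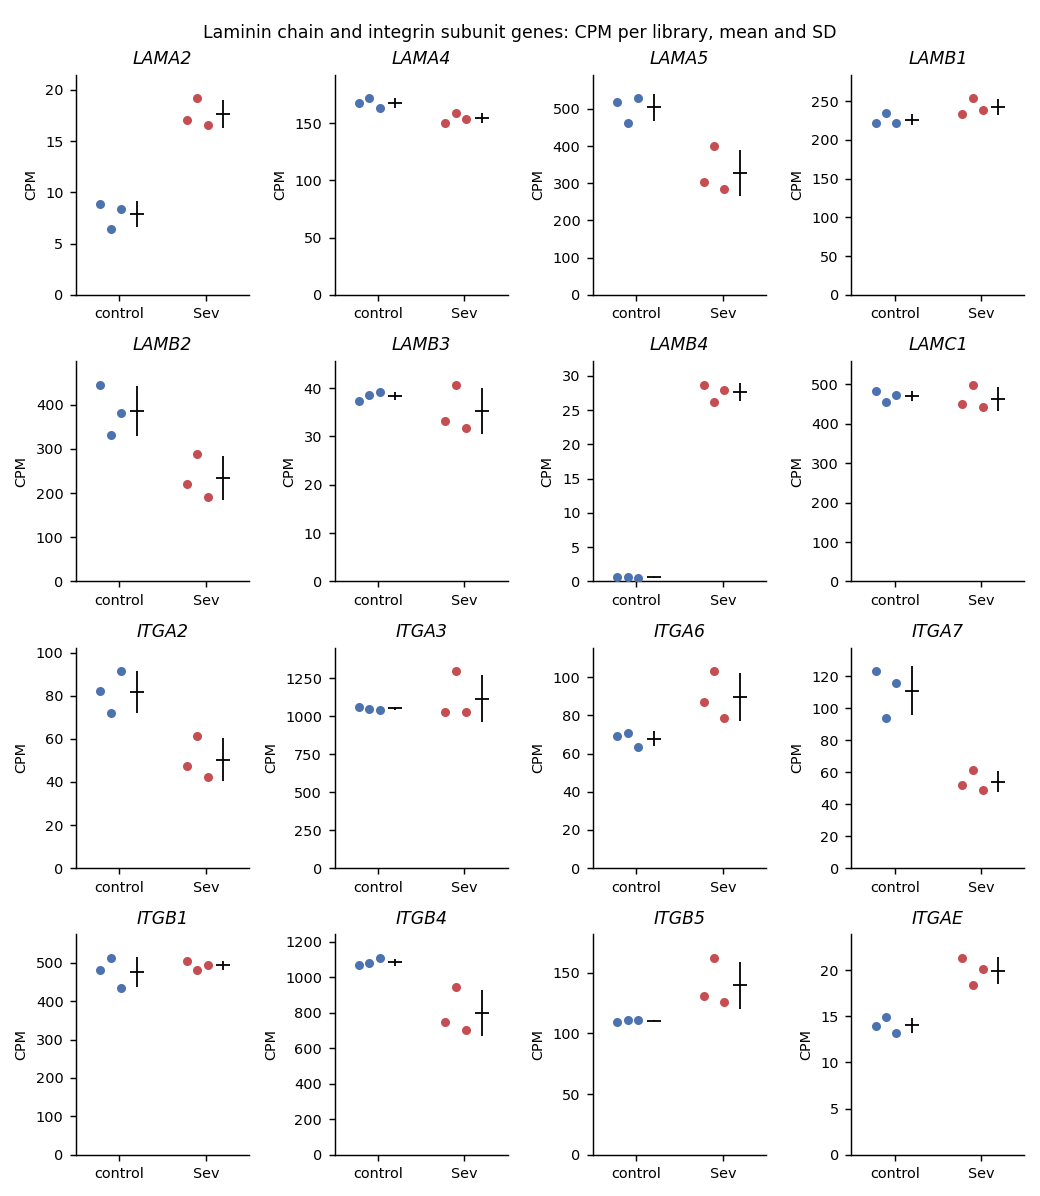
TMM-normalized CPM of 8 laminin chain genes and 8 integrin subunit genes in each library, with the group mean and SD in black and each y axis starting at 0. LAMB4 rises from close to 0, LAMA5, LAMB2, ITGA2, ITGA7 and ITGB4 lie lower in every Sev library, and LAMB3, LAMC1, ITGA3 and ITGB1 overlap.

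Integrins of leukocytes were scarce. ITGAE, the partner of beta-7 on lymphocytes of epithelia, was the exception at 13.9, 14.9 and 13.2 CPM in control and 21.3, 18.4 and 20.1 CPM in Sev. It rose by 0.51 (SE 0.11, adjusted p = 0.00783), a call lost in the 3 limma fits to FPKM (adjusted p = 0.06 to 0.0809). HASPIN, which overlaps ITGAE on the opposite strand, rose by 0.67 (adjusted p = 0.00288), and whether reads were shared between them was not tested. ITGAM (ENSG00000169896), the CD11b chain of myeloid cells, had 0 to 3 counts per control library and 33 to 130 per Sev library, a ratio of 52.7 with a counting interval of 22.3 to 164. It stood at 0.0473, 0.0757 and 0 CPM in control and at 1.83, 0.878 and 3.28 CPM in Sev (log2 fold change 5.59, SE 0.78, adjusted p = 0.00117). The gene passed the filter on low counts only through Sev and so had to differ, its log2 fold change ran from 4.96 to 6.31 when 1 library was left out (lowest without control replicate 3, highest without control replicate 2), and its call was lost in limma on unfiltered FPKM. TRIM72, the gene 28430 bases upstream on the same strand, went from a mean of 0.176 CPM to 5.18, 5.06 and 17.4 CPM, highest in Sev replicate 3 as ITGAM was, and it too passed the filter only through Sev. ITGB7 stood at 0.165, 0.151 and 0.185 CPM in control and at 0.531, 0.399 and 0.353 CPM in Sev. It rose by 1.33 (adjusted p = 0.0204), and the call was lost in 4 of 6 fits that leave out a library. ITGB2, the partner of ITGAM, was at 0.875, 0.555 and 0.865 CPM and then 0.823, 1.54 and 1.06 CPM, and was not called (0.57, adjusted p = 0.185). The summed leukocyte markers were 7.5 to 9.95 CPM in control and 15.2 to 19.9 CPM in Sev, carried by CD14, CD68, CSF1R and SPI1. The other 8 of 12, among them PTPRC, CD3E and AIF1, were under 1 CPM in every library, 4 of them at 0, and the part of other cells in these integrin values was not tested.

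Of the 24 genes near silent in control, 15 passed the filter on low counts and 9 did not. A gene that passed it only through the group where it is high (Sev for several of these genes, control for COL6A6) had to differ, so these genes are described one by one and their adjusted p-values are no independent support. Besides LAMB4, ITGA10, ITGAM and ITGB7, the higher genes were COL20A1, COL23A1, COL5A3, COL2A1, LAMC3 and ITGB6. COL20A1 (ENSG00000101203, chromosome 20, 63293186 to 63334851), a fibril-associated collagen, was at 0.307, 0.151 and 0.0618 CPM in control and at 9.74, 17 and 12.4 CPM in Sev. Its counts gave a ratio of 77.4 (counting interval 50.9 to 124), and CHRNA4, the next gene, was at 0 CPM in control and at 1.19, 0.293 and 0.177 CPM in Sev, untested. COL23A1 (ENSG00000050767), a membrane-spanning collagen, was at 0.213, 0.126 and 0.185 CPM and then at 4.73, 4.21 and 5.91 CPM, a ratio of 28.1 (counting interval 18.6 to 44.8). The 3 libraries of each group lay close together in this gene, and its flanking genes CLK4 and PHYKPL fell by 0.82 and 0.37 (adjusted p = 0.00366 and 0.0329). The fitted log2 fold change was 6.24 for COL20A1 (SE 0.44, adjusted p = 0.000105) and 4.79 for COL23A1 (SE 0.27, adjusted p = 5.26e-05). Without control replicate 1 that of COL20A1 was 6.94.

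COL5A3 had 6 counts in 1 control library and 0 in the other two, against 14 to 41 per Sev library, a ratio of 15.5 (counting interval 6.83 to 43.5). That ratio rests on the 1 control library with counts: the fitted log2 fold change was 3.87 with all libraries and 7.87 without control replicate 1, where control had no count left. COL2A1, the main cartilage collagen, was at 0.142, 0.151 and 0.0824 CPM in control and 0.743, 0.985 and 0.883 CPM in Sev, and an antisense RNA upstream of it, ENSG00000257985, went from 0.0669 to 0.658 CPM. Both were kept in the test by their Sev libraries, and in both every Sev library lay above every control library. ITGB6, the epithelial partner of alpha-v, went from 0.118, 0.0757 and 0.0824 CPM to 0.717, 1.62 and 0.581 CPM, and LAMC3 from 0.52, 0.631 and 0.556 CPM to 0.956, 0.852 and 1.14 CPM. The adjusted p was 0.0123 for COL5A3 and 0.00213 for ITGB6, and both calls were lost in limma on unfiltered FPKM (0.0599 and 0.0583). The LAMC3 rise of 0.78 (adjusted p = 0.0387) was lost in 5 of 6 fits that leave out a library and in the DESeq2 Wald test, as were the calls of ITGA10 and ITGB7 in the latter. COL6A6 was the single near silent gene that fell, by 2.56 (SE 0.41, adjusted p = 0.0022), from 0.615, 0.681 and 1.05 CPM to 0.186, 0.106 and 0.101 CPM. PIK3R4, 780 bases from its end, fell by 0.71 (adjusted p = 0.000476).

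COL3A1 (0.90), COL25A1 (-0.62), COL26A1 (-0.47) and ITGB2 passed the filter and were not called. The log2 fold change of COL26A1 rested on control replicate 3 at 1.22 CPM and was 0.27 without it. Of the 9 genes not tested, COL6A5 and ITGA8 had 0 counts in all 6 libraries, which allows up to 3 counts per library. COL15A1 had 2 counts over the control libraries and 35 over the Sev libraries, a ratio of 19.9 with a counting interval of 5.11 to 171. ITGAL had 21 and 36 counts in the same groups. COL9A1, COL22A1, LAMA3, ITGAX and ITGAD had no more than 5 counts in any library.

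**Figure D5:**
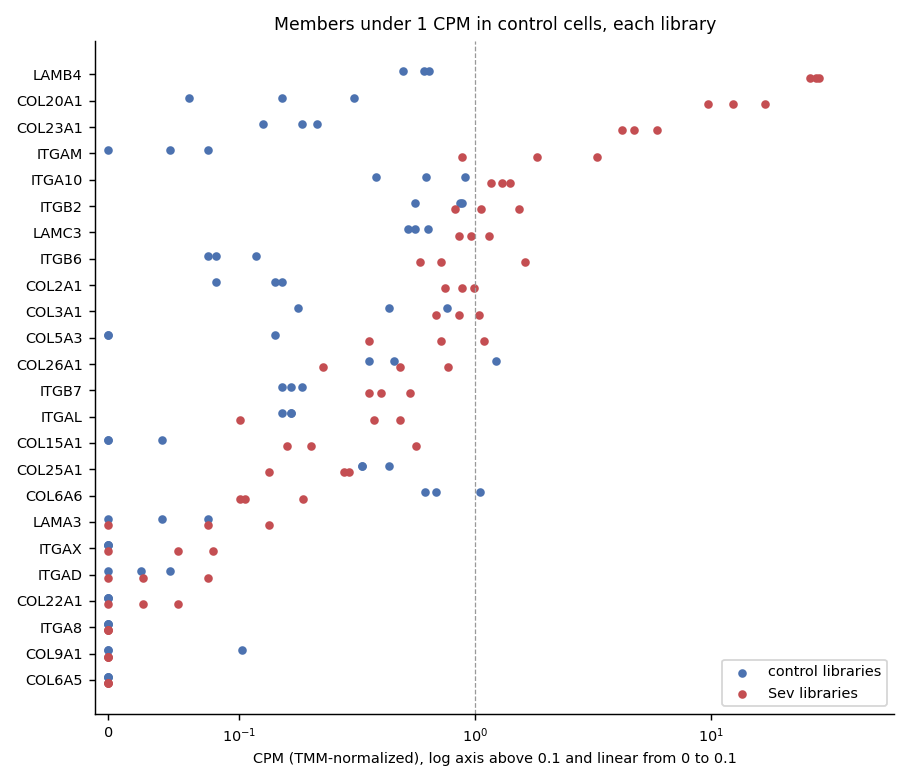
TMM-normalized CPM of the 24 genes under 1 CPM in control, in each control library (blue) and each Sev library (red), on an axis that is linear from 0 to 0.1 and logarithmic above. The red points of LAMB4, COL20A1 and COL23A1 lie past the dashed line at 1 CPM and clear of the blue points, and the red points of COL6A6, which was called lower, and of COL25A1, which was not called, lie to the left of their blue points.

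Genes that make, process and read the matrix were counted in 5 further lists, to be read against 22.1% higher and 21.5% lower of all tested features. Unlike the 58 genes above, these lists keep genes near silent in control, as do all tested features. Of 24 genes of collagen folding and modification tested, 5 were higher and 1 lower, with a median of -0.03, and with total-count scaling 4 were higher and 6 lower (median -0.17). COLGALT2, which adds galactose to collagen, rose by 0.64 (adjusted p = 0.00257). P4HA3, a prolyl 4-hydroxylase subunit, rose by 1.86 (adjusted p = 0.00348) from 0.388 to 1.43 CPM, and P3H2, a prolyl 3-hydroxylase, by 0.79 (adjusted p = 0.00539). Of 11 procollagen processing and crosslinking genes 2 were higher and 1 lower (median 0.03), and with total-count scaling 1 was higher and 3 lower (median -0.11). TLL2, a tolloid-like protease, was at 0.189, 0.404 and 0.391 CPM in control and at 2.31, 3.01 and 2.68 CPM in Sev, and was kept in the test by its Sev level, so its call is no support. Of the lysyl oxidases, LOXL4 fell by 0.63 (adjusted p = 0.00583) and LOXL2 rose by 0.44 (adjusted p = 0.0272).

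Other matrix and basement membrane proteins changed in both directions, with 14 higher (38.9%) and 10 lower (27.8%) of 36 tested (median 0.17). With total-count scaling the balance turned to 11 higher and 14 lower (median 0.02). Among the 14 higher of the main fit, ELN, MFAP5 and NPNT were kept in the test by their Sev levels, so their calls are no support. Their lowest control libraries stood at 0.202, 0.227 and 0.177 CPM. CCN2, connective tissue growth factor, rose from 770.5 ± 110.4 to 2653 ± 231 CPM (SD of 3 libraries). TNXB rose from 9.29 to 36.5 CPM and BCAN, a brain proteoglycan, fell from 12.9 to 5.73 CPM. The integrin adhesion complex list held linkers to the cytoskeleton, signaling proteins and membrane partners of integrins. Of its 55 genes tested, 20 were higher (36.4%) and 7 lower (12.7%) (median 0.21), and with total-count scaling 16 and 12 (median 0.05). RAPH1 rose from 52 to 106 CPM, ZYX from 88 to 176 CPM and LIMS2 from 0.22 to 3.17 CPM. Of 23 receptors for matrix other than integrins, 7 were higher (30.4%) and 4 lower (17.4%) (median 0.03), and with total-count scaling the balance turned to 5 higher and 9 lower (median -0.11). CD44, the hyaluronan receptor, rose from 385 ± 19.1 to 755 ± 39.7 CPM and SDC4 from 40.5 to 103 CPM, while HMMR, which is also a mitotic spindle protein, fell from 31.4 to 9.94 CPM. LIMS2, like TNS4 and PARVB of the same list, was under 0.3 CPM in every control library and was kept in the test by its Sev level. The calls of these genes are no support, and they are among the 20 higher. The adjusted p of CCN2, TNXB, BCAN, RAPH1, ZYX, LIMS2, CD44, SDC4 and HMMR ranged from 0.000112 to 0.00045.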

How the data were processed

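The libraries were ribosomal RNA-depleted and strand-specific, sequenced as paired ends. The authors deposited raw counts per feature and FPKM for 6 libraries. The submitters' processing notes name bcl2fastq 2.19, featureCounts and hg18, although 58457 of the 61496 features carry IDs of GENCODE 29, a later annotation, so the build counted on is uncertain. The aligner, the FPKM tool and the use of strand in counting are not given in the sources used here, so reads of overlapping genes could not be told apart. Gene types and positions came from GENCODE 29 (GRCh38) by Ensembl ID, and symbols from a gene name table.

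Counts were tested with edgeR 4.0.16 (R 4.3.3; TMM, filterByExpr, quasi-likelihood) on 27514 features, with Benjamini-Hochberg adjustment over all of them and calls at an adjusted p under 0.05. The fold threshold came from the study's methods. Genes were compared as FPKM, summed after division by the TMM factor. Ratios of pooled counts carry exact 95% intervals, also where a control library had 3 counts or fewer. Scripts were tested on simulated data. The 82 members and the lists were chosen with earlier results of these data known. Full statistics go to the called genes with the largest changes per family, the 3 most abundant per family, near silent genes that passed the filter and their partners or neighbors. From each other list the 3 called genes with the smallest p are named, and others only where low control levels limit their calls. The other members are named since all are accounted for, except 1 that is counted but not reported here. Alternatives were DESeq2 1.42.0 (size factors and Wald test), total-count scaling, other filters, a replicate block, limma 3.58.1 on log2 FPKM and leaving out each library.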

Additional observations from a re-analysis of the deposited data

How the results depend on the processing

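With DESeq2's size factors, the DESeq2 Wald test, or at least 10 counts in every library, the same 8 higher and 18 lower genes were called, and the median stayed between -0.143 and -0.122. Without an expression filter 7 were higher and 18 lower. Total-count scaling moved the median to -0.279 and called 6 higher and 25 lower, all 18 among the 25. The lower genes it added were COL5A2, COL11A2, COL4A1, COL4A2, COL9A2, LAMA4 and ITGA5. In the other lists it gave 6 lower in collagen folding, 1 higher and 3 lower in procollagen processing, 12 lower in the adhesion complex and 9 lower among non-integrin receptors. The FPKM fits lack a scaling factor: limma on log2(FPKM + 1), on log2(FPKM + 0.1) and on log2(FPKM + 1) without a filter called 3, 3 and 4 higher, each without COL16A1, ITGA6, ITGAE and ITGB5, and 23, 22 and 19 lower, of 45, 45 and 58 genes tested, and put 0, 2 and 0 past the upward fold threshold, and the first 2 gave medians of -0.238 and -0.271 (all features -0.115 and -0.166). Near silent limits of 0.5 and 3 CPM gave 11 and 6 higher and 19 and 18 lower. Splitting near silent genes by the mean over all 6 libraries put 8 past the upward threshold. That split let in LAMB4, COL20A1, COL23A1 and ITGAM through their Sev levels, so the added calls are no support. Leaving out 1 library gave 5 to 9 higher, 12 to 21 lower, 0 to 2 past the downward and 4 past the upward threshold, and medians of -0.201 to -0.111. The lowest counts came without control replicate 1 (5 higher), control replicate 3 (5 higher, 12 lower) and Sev replicates 1 or 3 (12 lower each). Without Sev replicate 2, COL5A2, COL8A1, COL9A2 and ITGA5 were added as lower. Uncalled genes changed sign: COL12A1 to -0.08 with total-count scaling and all 3 FPKM fits, ITGA3 to -0.06 and -0.07, ITGB1 to -0.09 in the same fits, ITGA3 to -0.03 without Sev replicate 2 (range without 1 library -0.03 to 0.14), ITGB1 to -0.01 (-0.01 to 0.10) and COL26A1 to 0.27 (-0.95 to 0.27) without control replicate 3, and LAMC1 to 0.00 and 0.01 (-0.07 to 0.01) without Sev replicates 1 and 3. The cause was not tested.

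Replicate numbers are shared between groups, but same-numbered libraries did not deviate together over the tested features (correlations -0.00723, 0.00351 and 0.027). Whether same-numbered libraries were handled as pairs cannot be told from these values. With the replicate number as a block, 7 genes were higher and 15 lower, without ITGB5, COL1A2, COL4A3 and COL21A1, the near silent LAMC3 and ITGB7 lost their calls too, and the median was -0.135.

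Depth limits the near silent genes, of which 9 of 24 were not tested.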

Other observations

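Endothelial markers, of which CDH5 and VWF were at 4.07 and 3.29 CPM in control, summed to 40.1 to 42.6 CPM in control and 53.3 to 66.7 CPM in Sev, most of it KDR at 32.3 and 46.4 CPM. EMCN was at 0 in every library and TEK and ERG were under 1 CPM. Of the 12 glioma and astrocyte markers, 1 was higher (CD44) and 3 were lower among the 10 tested. SOX2 stood at 286 CPM in control and 173 CPM in Sev, S100B at 22.2 and 10.3 CPM, and OLIG2 at 2.39 and 0.598 CPM. GFAP stood at 269.9 and 275 CPM.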
